A study of Drosophila melanogaster with 14 samples.

Results

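The chemoreceptor genes of Drosophila melanogaster were taken as all genes whose FlyBase symbol is Or, Gr or Ir followed directly by a number, plus Orco, and were found by FlyBase identifier in the deposited tables. They numbered 171 of 15490 genes listed in any table, made up of 56 odorant receptor (Or) genes, 54 gustatory receptor (Gr) genes and 61 ionotropic receptor (Ir) genes. The table of the APP flies listed 164 of them among 14767 genes, the table of the Shal495 flies listed 162 among 14791, and the table of the TrpA1 flies listed 127 among 13312. Another 16 symbols of these families in the reference names had no row in the tables and were not analysed here.

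RNA-seq was done on 14 libraries, 2 for each of 7 genotypes, each from about 50 adult male flies aged 5 to 7 days, to look for pathways affected by APP, Shal495 and TrpA1. In the APP table, Elav-APP flies (Elav-Gal4;UAS-APP;+) were set against Elav driver flies (Elav-Gal4;+;+) and UAS-APP flies (w;UAS-APP;+). In the Shal495 table, Shal495 flies (w;+;Shal495, written Shal496 in the genotype label of the second library) were set against w1118 flies. In the TrpA1 table, Elav-TrpA1 flies (Elav-Gal4;+;UAS-TrpA1) were set against UAS-TrpA1 flies (w;+;UAS-TrpA1), and that table held no Elav driver flies. Elav-Gal4 is a driver that switches on UAS transgenes in neurons, APP is the amyloid precursor protein, TrpA1 is a warmth-activated cation channel, and Shal encodes a potassium channel. The labels name dissected and fixed brains, whereas the series description names heads. The labels do not state that replicate libraries come from different cultures or crosses, and the spread behind each p-value may therefore be technical.

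Odorant receptors are carried by neurons of the antenna and the maxillary palp, where each neuron usually makes a ligand-binding Or together with Orco, without which the receptor does not reach the cilium. Gustatory receptors serve taste neurons of the proboscis and legs, with a pair of antennal members that sense carbon dioxide. Ionotropic receptors descend from glutamate receptors and work with co-receptors such as Ir25a, Ir8a, Ir76b and Ir93a, in antennal neurons for acids, amines, temperature and humidity, and in taste neurons. The central brain itself is known for few of these genes, so their RNA is read here as a measure of antennal and mouthpart RNA in a library.

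Depth differed little between libraries, at 17162942 to 19911318 fragments. At that depth 3 fragments of a gene with 1 kb of exon correspond to 0.151 to 0.175 FPKM, so a gene listed at 0 could still lie below that level, counting error only. The 12 neuronal markers were present in every library, with none at 0, and so were the 12 photoreceptor genes, among them the rhodopsin ninaE at 1523 to 22058 FPKM. Summed FPKM of the neuronal list was 1502 and 1487 in Elav-APP, against 104 and 104 in Elav driver and 415 and 309 in UAS-APP. The 15 digestive enzyme genes of the gut went the other way in the APP table, at 861 and 863 in Elav-APP, against 59250 and 60250 in Elav driver and 24976 and 27761 in UAS-APP. Of the targeted genes, Shal was at 18.3 and 20.0 FPKM in Shal495, against 27.7 and 27.1 FPKM in w1118 (limma, adjusted p = 0.0902), and TrpA1 was at 2.76 and 2.62 FPKM in Elav-TrpA1, against 1.48 and 1.48 FPKM in UAS-TrpA1 (limma, adjusted p = 0.00309). TrpA1 was also at 2.92 and 2.83 FPKM in Elav driver, which carries no UAS-TrpA1, against 1.38 and 1.78 FPKM in UAS-APP (limma, adjusted p = 0.0121), so its level is no check of the transgene. The APP transgene has no row that was identified here.

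Orco was the most abundant receptor gene in each of the 14 libraries. The gene (FBgn0037324, BDGP6 chromosome 3R, 5407183 to 5412406, minus strand) had 50.6 and 50.9 FPKM in Elav-APP, against 5.67 and 5.37 FPKM in Elav driver and 12.7 and 10.0 FPKM in UAS-APP. The Elav-APP libraries lay above those of both controls. Orco had 81.8 and 67.0 FPKM in Shal495, against 102 and 104 FPKM in w1118. In the TrpA1 table it had 4.31 and 5.40 FPKM in Elav-TrpA1, against 10.7 and 11.0 FPKM in UAS-TrpA1. The 3 tables were deposited separately, so levels in different tables are given side by side and were not tested against each other. The Ir co-receptors were lower than Orco in each library, and Ir93a was the lowest of the 4 in each of the 14 libraries.

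**Figure D1:**
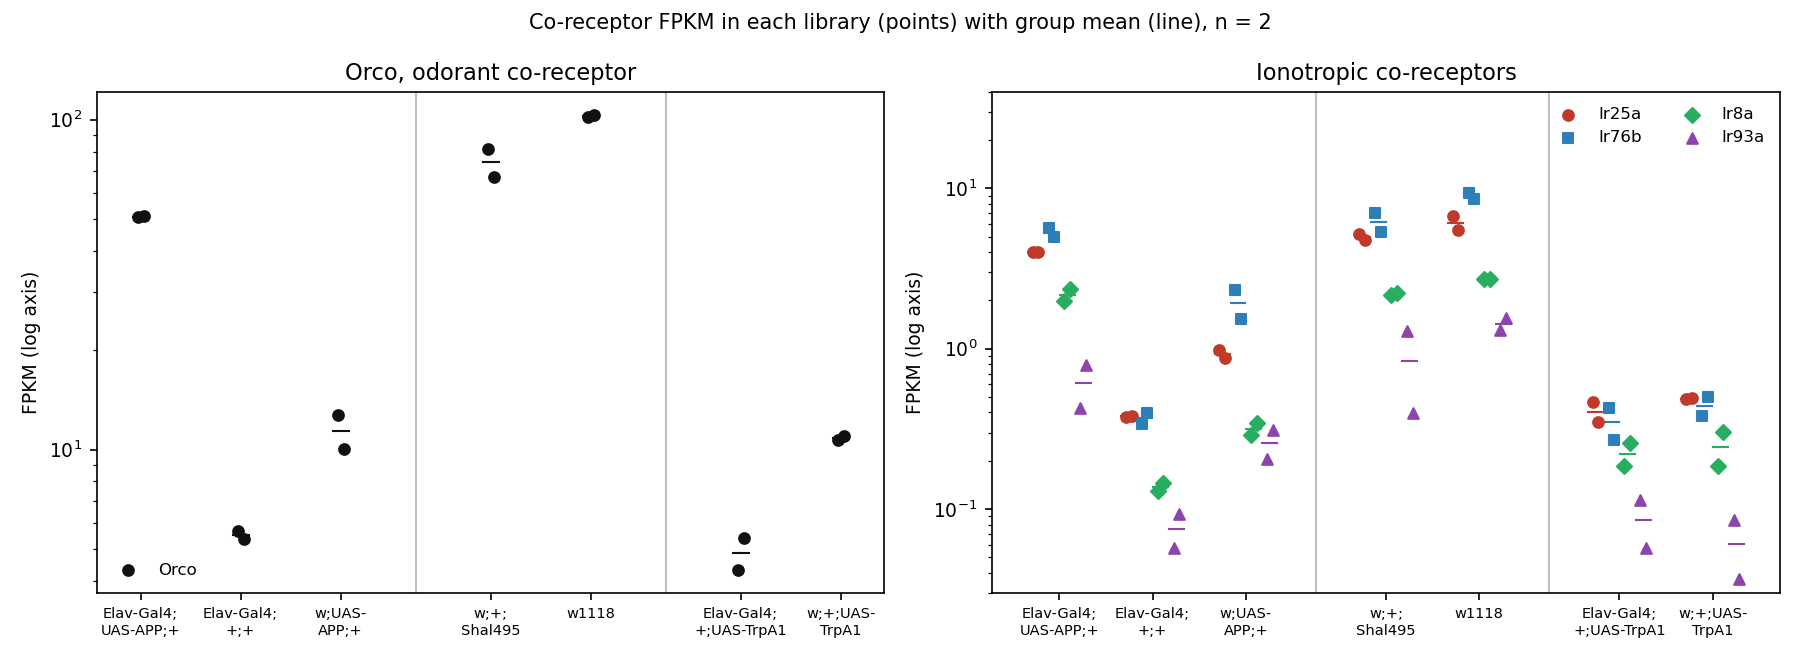
FPKM (log axis) of Orco, left, and of the 4 ionotropic co-receptors, right, in each library. Each point is a library, the short line is the group mean (n = 2), and grey lines part the 3 tables. Orco sits near 50 in Elav-APP against 5 to 13 in its 2 controls, and near 5 in Elav-TrpA1 against about 11 in UAS-TrpA1.

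A member was counted as detected in a group when both libraries held 3 or more fragments recovered from its FPKM. Of the members listed for the APP flies, 93 were detected in Elav-APP, against 43 in Elav driver and 56 in UAS-APP. In the Shal495 table the counts were 90 in Shal495 and 88 in w1118, and for the TrpA1 flies 55 in Elav-TrpA1 and 57 in UAS-TrpA1. By family, 83.3% of the 54 listed Or genes were detected in Elav-APP, against 33.3% in Elav driver and 50% in UAS-APP. The share of the 58 listed Ir genes was 53.4% in Elav-APP, against 24.1% in Elav driver and 31.0% in UAS-APP. The share of the 52 listed Gr genes was 32.7% in Elav-APP, against 21.2% in Elav driver and 21.2% in UAS-APP. The Gr genes were thus the least often detected family in each of these groups. Over 14 libraries 26 members, of which 3 were Or, 10 Gr and 13 Ir, never reached 3 fragments. No fragments could be recovered with the annotated exon length for Ir7g and Ir56b, and they are left out of these counts. By the steps of their own FPKM values Ir7g had 4 and 3 fragments in Elav driver, which would make 44 members detected there, and neither gene would be added in another group.

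**Figure D2:**
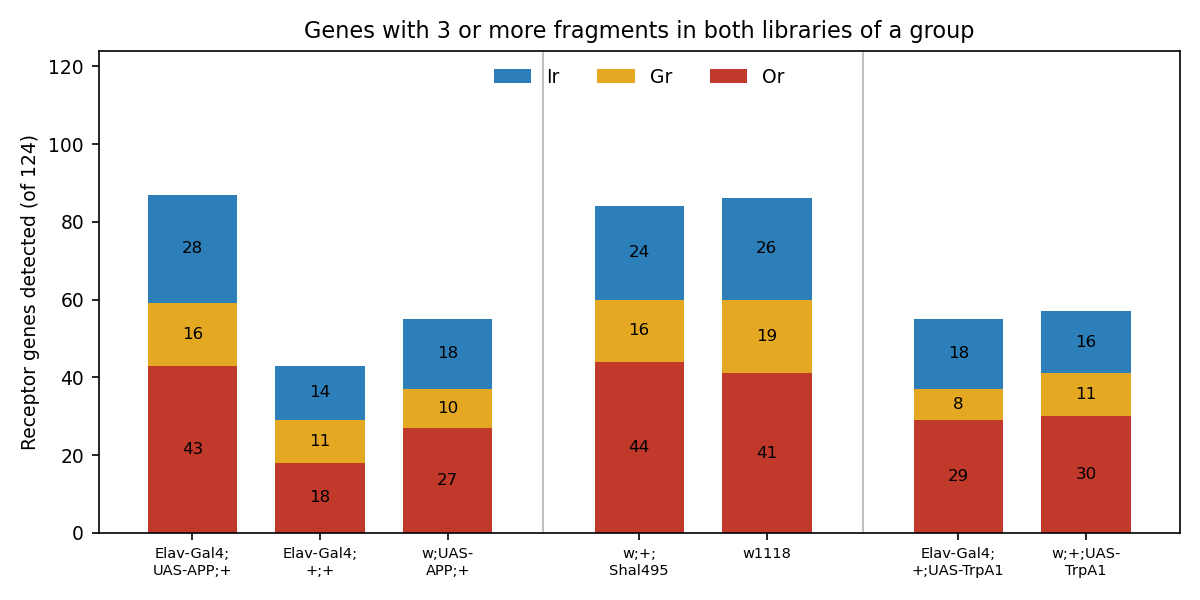
Number of receptor genes with 3 or more fragments in both libraries of a group, over the 124 members listed in every table, stacked by family (Ir on top, Gr in the middle, Or at the base). The total is 87 in Elav-APP, 43 in Elav driver and 55 in UAS-APP, 84 in Shal495 and 86 in w1118, and 55 in Elav-TrpA1 and 57 in UAS-TrpA1.

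The detected sets also differed by organ. Of 6 listed palp receptors, 6 were detected in Elav-APP, against 3 in Elav driver and 3 in UAS-APP, and 1 in Elav-TrpA1 against 3 in UAS-TrpA1. Of 24 listed receptors of antennal basiconic sensilla, the large pored hairs for food odours, 20 were detected in Elav-APP, against 10 in Elav driver and 12 in UAS-APP. Taste Ir genes were rarer, with 11 of 34 detected in Elav-APP, against 1 in Elav driver and 2 in UAS-APP. Of 25 listed Gr genes of bitter neurons outside the 5 widely used ones, 3 were detected in Elav-APP, against 1 in Elav driver and 2 in UAS-APP.

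Tests used limma on log2(FPKM + 0.1), for genes with 0.3 FPKM or more in at least 2 libraries, with p-values adjusted over all tested genes and a threshold of 0.05. On this scale the change of a weakly expressed gene is understated. The median over all tested genes was itself away from 0, at 0.54 for Elav-APP against Elav driver, 0.23 for Elav-APP against UAS-APP, -0.32 for Elav driver against UAS-APP, -0.09 for Shal495 against w1118 and -0.19 for Elav-TrpA1 against UAS-TrpA1. A log2 difference given below as relative has that median taken off. SE is the moderated standard error of a log2 difference.

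Against Elav driver, Elav-APP flies had more RNA of 57 receptor genes and less of none, and the largest differences were those of Or71a, Or1a, Or63a, Ir76b and Or13a. Of 164 listed members 69 passed the filter on low values, 20 of them only through the group where they were high. Of these 69, 57 were higher and 0 lower, where 55% of all tested genes were higher and 25.2% lower (80.2% called in all). By family 33 of 36 Or, 9 of 14 Gr and 15 of 19 Ir genes that passed were higher. With quantile normalization the split was 35 higher and 5 lower, the 5 being Ir10a, Ir76a, Ir85a, Ir92a and Gr47b. The median over the tested members was 2.04 on the log2 scale, beside 0.54 for all tested genes. In these bulk samples fewer cells of a type and less RNA per cell cannot be told apart.

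The comparison with UAS-APP flies gave 45 members higher and 7 lower in Elav-APP of the 69 that passed the filter, where 43.5% of all tested genes were higher and 27.8% lower (71.3% called in all). Here 28 of 36 Or genes were higher and 1 lower, 6 of 14 Gr genes higher and 0 lower, and 11 of 19 Ir genes higher and 6 lower. The 7 lower members were Or19b, Ir10a, Ir75a, Ir75b, Ir76a, Ir85a and Ir92a. The median over the tested members was 1.47, beside 0.23 for all tested genes. Both comparisons share the Elav-APP libraries, so their counts are not independent. Of the 69, 20 (11 Or, 5 Gr and 4 Ir) passed the filter only through Elav-APP and could not come out lower in either comparison. In both, 44 members were higher (28 Or, 5 Gr and 11 Ir), 0 were lower, and Or19b, Ir75a and Ir75b went in opposite directions. Leaving out 1 library at a time gave 48 to 57 calls against Elav driver and 35 to 49 against UAS-APP.

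Among co-receptors, Orco was higher in Elav-APP than in Elav driver by a relative log2 difference of 2.64 (SE 0.12, limma, adjusted p = 1.41e-06) and higher than in UAS-APP by 1.93 (SE 0.12, adjusted p = 1.54e-05). Ir25a, the broadly used Ir co-receptor, had 4.01 and 4.00 FPKM in Elav-APP, against 0.376 and 0.383 FPKM in Elav driver and 0.983 and 0.871 FPKM in UAS-APP. Its groups did not overlap, and its relative differences were 2.56 (SE 0.18, limma, adjusted p = 9.1e-06) and 1.77 (SE 0.18, adjusted p = 0.000117). Ir76b, a co-receptor for amines and for several tastes, had 5.65 and 4.95 FPKM in Elav-APP, against 0.338 and 0.397 FPKM in Elav driver and 2.33 and 1.53 FPKM in UAS-APP. Ir8a, the co-receptor of acid-sensing neurons, had 1.98 and 2.34 FPKM in Elav-APP, against 0.129 and 0.145 FPKM in Elav driver and 0.291 and 0.343 FPKM in UAS-APP. Both passed the threshold in both comparisons. Ir93a, which serves temperature and humidity sensing, had 0.429 and 0.794 FPKM in Elav-APP, against 0.0568 and 0.0927 FPKM in Elav driver, and passed there (limma, adjusted p = 0.00386). Against UAS-APP, with 0.205 and 0.311 FPKM, it did not pass (adjusted p = 0.0746).

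The palp receptor Or71a, which detects smoky phenols, showed the largest difference from Elav driver among the tested members. Or71a (chromosome 3L, 15076907 to 15078447, minus strand, within the gene Plp) had 12.3 and 13.3 FPKM in Elav-APP, against 0.254 and 0.248 FPKM in Elav driver and 7.92 and 7.88 FPKM in UAS-APP. Both groups that carry UAS-APP were thus far above the driver flies. Its relative log2 difference was 4.66 against Elav driver (SE 0.12, limma, adjusted p = 3.46e-07) and 0.46 against UAS-APP (SE 0.12, adjusted p = 0.00231). Elav driver lay below UAS-APP by a relative -4.19 (SE 0.12, adjusted p = 5.1e-06). The surrounding gene Plp had 33.9 and 33.0 FPKM in Elav-APP, against 5.35 and 5.45 FPKM in Elav driver and 15.8 and 14.1 FPKM in UAS-APP, and its part in the Or71a values was not tested. Among summed FPKM of Or genes other than Orco, Or71a made up 18.4% and 19.4% in Elav-APP, against 3.12% and 3.04% in Elav driver and 28.1% and 34.0% in UAS-APP. In the other tables its share was 1.49% to 1.73% in the 4 Shal495 and w1118 libraries, 7.22% and 9.68% in Elav-TrpA1, and 2.03% and 4.20% in UAS-TrpA1.

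In Elav-APP and UAS-APP the other palp receptors were much weaker than Or71a. Or85e had 1.14 and 1.25 FPKM in Elav-APP, against 0.111 and 0.109 FPKM in Elav driver and 0.0728 and 0 FPKM in UAS-APP, and passed in both comparisons (limma, adjusted p = 0.000848 and 0.000378). It entered the test only through the Elav-APP libraries. Of the 6 palp receptors tested, 5 were higher than in Elav driver and 4 higher than in UAS-APP, beside 55% and 43.5% of all tested genes. Or85d, too, entered the test only through the Elav-APP libraries.

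Of 18 tested receptors of antennal basiconic sensilla, 17 were higher in Elav-APP than in Elav driver and 15 higher than in UAS-APP, with 0 lower in either. Of all tested genes 55% and 43.5% were higher. Or47a, Or67a, Or69a, Or85a and Or98a entered the test only through the Elav-APP libraries. Or42b, the vinegar ester receptor of the ab1 sensillum, had 3.43 and 3.98 FPKM in Elav-APP, against 0.303 and 0.339 FPKM in Elav driver and 0.128 and 0.284 FPKM in UAS-APP. The relative differences were 2.64 (SE 0.31, limma, adjusted p = 0.000103) and 3.45 (SE 0.31, adjusted p = 8.27e-05). Or92a, its diacetyl-sensing neighbour in the same sensillum, had 2.99 and 5.04 FPKM in Elav-APP, against 0.295 and 0.495 FPKM in Elav driver and 0.249 and 0.138 FPKM in UAS-APP. For both genes the controls lay close to each other and the Elav-APP libraries far above. Or22b, of the ab3 sensillum that responds to fruit esters, had 2.84 and 2.58 FPKM in Elav-APP, against 0.480 and 0.314 FPKM in Elav driver and 0.276 and 0.437 FPKM in UAS-APP. Its neighbour Or22a had 0.979 and 1.23 FPKM in Elav-APP, against 0.183 and 0.322 FPKM in Elav driver and 0.468 and 0.240 FPKM in UAS-APP. These are close relatives side by side, so the split of fragments between them is uncertain. Or43b, at 5.45 and 4.36 FPKM in Elav-APP, shares 40.7% of its exons with Cul1 on the other strand, and without strand the reads of the pair cannot be told apart.

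Or13a, the receptor for the mushroom alcohol octenol, had 1.74 and 1.65 FPKM in Elav-APP, against 0 and 0.162 FPKM in Elav driver and 0.651 and 0.452 FPKM in UAS-APP. It passed in both comparisons (limma, adjusted p = 0.000565 and 0.0305), and the call against UAS-APP was lost without any one of the 4 libraries of that comparison, with adjusted p up to 0.133.

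Receptors of trichoid sensilla, the hairs that detect fly pheromones, were fewer. Or47b, the fatty acid pheromone receptor, had 3.02 and 2.74 FPKM in Elav-APP, against 0.293 and 0.411 FPKM in Elav driver and 1.36 and 0.687 FPKM in UAS-APP. It passed in both comparisons (limma, adjusted p = 0.000291 and 0.00697), but without the first Elav-APP library the second gave an adjusted p of 0.0587. Or67d, the receptor for the male pheromone cis-vaccenyl acetate, had 2.18 and 1.04 FPKM in Elav-APP, against 0.0883 and 0.216 FPKM in Elav driver and 0.782 and 0.241 FPKM in UAS-APP. Its call against Elav driver (limma, adjusted p = 0.00435) was kept under each library left out. The call against UAS-APP (adjusted p = 0.0479) was lost in 5 of 6 such fits, those without either Elav-APP library, either Elav driver library or the second UAS-APP library, with adjusted p up to 0.261. Or19b, a receptor for citrus terpenes, had 0.735 and 0.639 FPKM in Elav-APP, against 0.178 and 0.262 FPKM in Elav driver and 1.80 and 1.02 FPKM in UAS-APP. It thus lay between its 2 controls. Its call against UAS-APP (limma, adjusted p = 0.0492) was lost in 5 of 6 fits with a library left out, all but the one without the second UAS-APP library, and its call against Elav driver (adjusted p = 0.0102) without the first library of either group. Its near copy Or19a had 0.276 and 0.0913 FPKM in Elav-APP.

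Some receptors best known from the larval nose were also present in these adults. Or63a had 4.79 and 4.20 FPKM in Elav-APP, against 0.302 and 0.0888 FPKM in Elav driver and 1.64 and 1.32 FPKM in UAS-APP. Or1a (chromosome X, 315123 to 316566, plus strand, within the gene CG3777) had 2.61 and 2.64 FPKM in Elav-APP, against 0.0437 and 0.0856 FPKM in Elav driver and 0.215 and 0.478 FPKM in UAS-APP. The relative log2 differences of Or1a were 3.52 (SE 0.37, limma, adjusted p = 6.63e-05) and 2.44 (SE 0.37, adjusted p = 0.000728). The surrounding gene CG3777 had 1.55 and 1.45 FPKM in Elav-APP, against 0.469 and 0.401 FPKM in Elav driver and 0.545 and 0.710 FPKM in UAS-APP, and its part in the Or1a values was not tested.

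Of the antennal carbon dioxide pair, Gr63a had 1.27 and 1.41 FPKM in Elav-APP, against 0.0353 and 0.138 FPKM in Elav driver and 0.0348 and 0.154 FPKM in UAS-APP. It passed in both comparisons (limma, adjusted p = 0.000984 and 0.00137). Its partner Gr21a had 0.410 and 0.550 FPKM in Elav-APP, against 0 and 0.0458 FPKM in Elav driver and 0.184 and 0.128 FPKM in UAS-APP. Gr21a passed in both (adjusted p = 0.00226 and 0.0403), and the call against UAS-APP was lost without either Elav-APP library or the second UAS-APP library (adjusted p = 0.0566 to 0.12). Both members of the pair entered the test only through the Elav-APP libraries.

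The sugar receptors tested, Gr61a and Gr64f, were higher in Elav-APP than in both controls, but entered the test only through the Elav-APP libraries. The call of Gr61a against UAS-APP (limma, adjusted p = 0.00935) was lost without the first Elav-APP library (adjusted p = 0.0649). Gr64f, the co-receptor of sugar neurons, had 1.41 and 0.955 FPKM in Elav-APP, against 0.180 and 0 FPKM in Elav driver and 0.247 and 0.236 FPKM in UAS-APP, and passed in both comparisons (limma, adjusted p = 0.00211 and 0.0174). The call against UAS-APP was lost without any one of the 4 libraries of that comparison, with adjusted p of 0.0546 to 0.109. The trehalose receptor Gr5a, at 0.215 and 0.178 FPKM in Elav-APP, and the fructose receptor Gr43a, at 0.210 and 0.0348 FPKM, did not pass the filter in this table. The bitter co-receptor Gr66a had 0.743 and 0.771 FPKM in Elav-APP, against 0.590 and 0.514 FPKM in Elav driver, a difference that did not pass (limma, adjusted p = 0.192). Against UAS-APP, with 0.290 and 0.323 FPKM, it was higher (adjusted p = 0.00854). The bitter receptor Gr33a was listed at 0 in both Elav driver libraries and had 0.360 and 0.423 FPKM in Elav-APP. Gr39a, a bitter receptor with a part in courtship, had 2.22 and 2.23 FPKM in Elav-APP, against 0.396 and 0.521 FPKM in Elav driver and 0.470 and 0.283 FPKM in UAS-APP, the highest Gr level of Elav-APP. Gr28b, linked to warmth sensing, had 0.364 and 0.386 FPKM in Elav-APP, against 0.183 and 0.155 FPKM in Elav driver and 0.396 and 0.226 FPKM in UAS-APP, and passed in neither comparison.

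**Figure D3:**
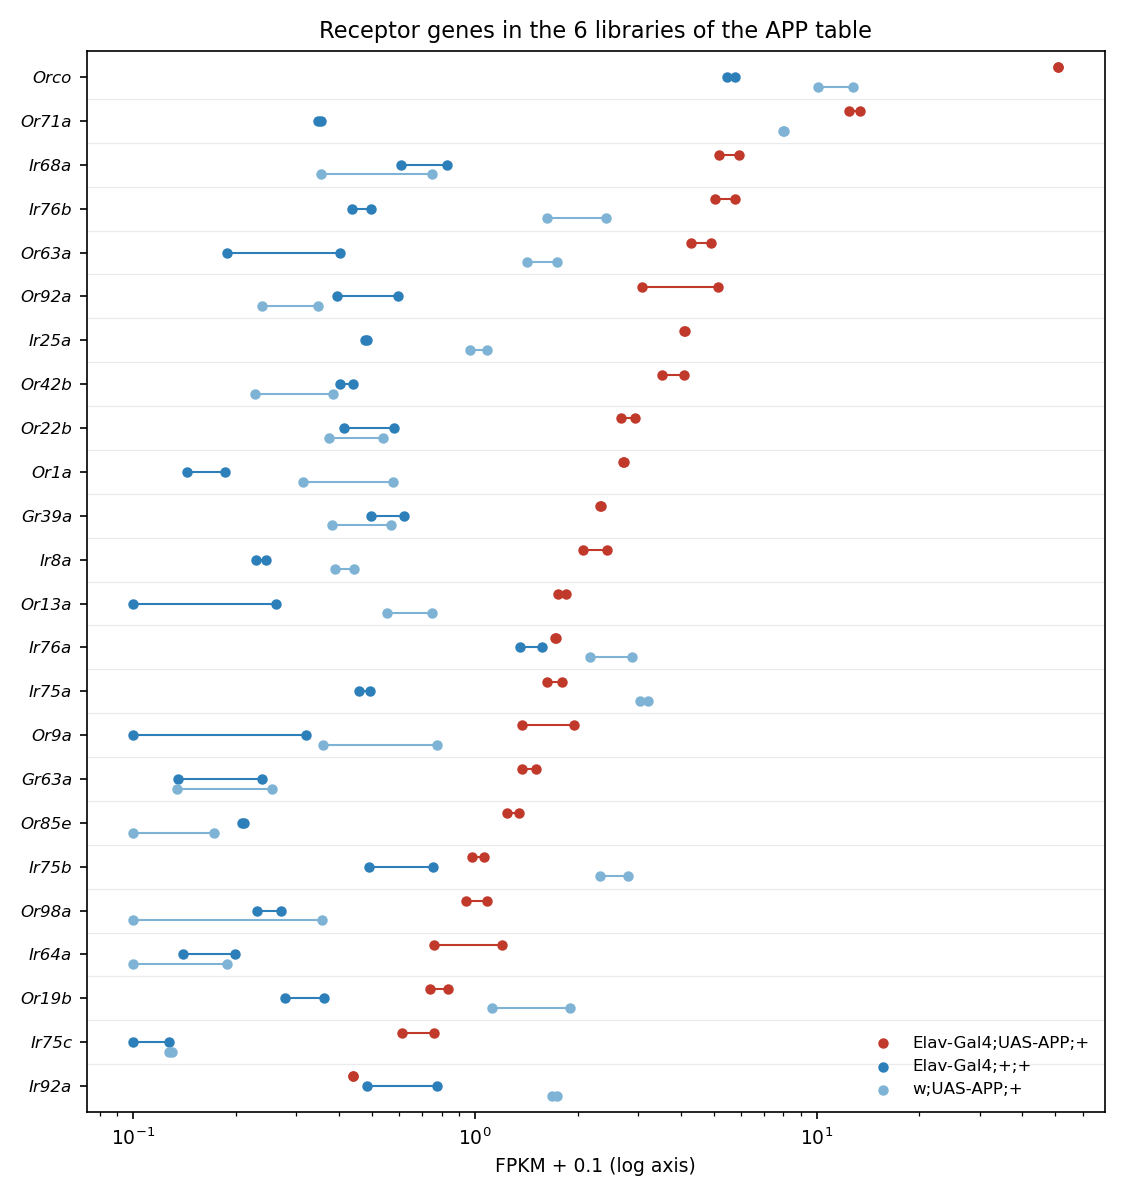
FPKM plus 0.1 (log axis) of 24 receptor genes in the 6 libraries of the APP table, ordered by their mean in Elav-APP. Points joined by a line are the 2 libraries of a group. The genes are the 12 with the largest called differences of Elav-APP from each control, plus Or19b, Ir75a, Ir75b, Ir76a and Ir92a. That most genes lie right of both controls in Elav-APP therefore follows from how they were chosen. Or71a has its UAS-APP libraries far above its Elav driver libraries. Or19b, Ir75a, Ir75b, Ir76a and Ir92a are highest in UAS-APP.

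The antennal Ir genes split. Ir64a, an acid sensor of the sacculus, had 1.10 and 0.659 FPKM in Elav-APP, against 0.0403 and 0.0986 FPKM in Elav driver and 0 and 0.0880 FPKM in UAS-APP. Ir75c, an acid receptor, had 0.657 and 0.511 FPKM in Elav-APP, against 0 and 0.0272 FPKM in Elav driver and 0.0273 and 0.0303 FPKM in UAS-APP. Ir64a and Ir75c too passed the filter only through the Elav-APP libraries. Ir75a, the acetic acid receptor beside it on chromosome 3L, had 1.70 and 1.53 FPKM in Elav-APP, against 0.393 and 0.359 FPKM in Elav driver and 3.12 and 2.95 FPKM in UAS-APP. Its relative log2 differences were 1.31 against Elav driver (SE 0.18, limma, adjusted p = 9.95e-05) and -1.10 against UAS-APP (SE 0.18, adjusted p = 0.00489), so its Elav-APP libraries lay between the controls. Ir75b, the third of this row of genes, had 0.883 and 0.964 FPKM in Elav-APP, against 0.657 and 0.392 FPKM in Elav driver and 2.70 and 2.22 FPKM in UAS-APP. Its call against Elav driver (adjusted p = 0.0384) was lost in 5 of 6 fits with a library left out, all but the one without the first Elav driver library, and its sign turned under quantile normalization.

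Ir92a, needed for sensing ammonia and amines, was lower in Elav-APP than in UAS-APP, with 0.341 and 0.339 FPKM in Elav-APP, 0.382 and 0.674 FPKM in Elav driver and 1.58 and 1.64 FPKM in UAS-APP. The relative difference from UAS-APP was -2.19 (SE 0.29, limma, adjusted p = 0.00109). Ir76a, the phenylethylamine receptor, had 1.62 and 1.61 FPKM in Elav-APP, against 1.48 and 1.25 FPKM in Elav driver and 2.79 and 2.07 FPKM in UAS-APP. Its call against UAS-APP (adjusted p = 0.0464) was lost in 5 of 6 fits with a library left out, all but the one without the second UAS-APP library, with adjusted p up to 0.161. The exons of Ir76a overlap CG14102 over 14.1% of their length.

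Ir68a, the moist air receptor of the sacculus (chromosome 3L, 11232972 to 11236218, minus strand), had 5.82 and 5.09 FPKM in Elav-APP, against 0.510 and 0.729 FPKM in Elav driver and 0.649 and 0.256 FPKM in UAS-APP. The relative differences were 2.42 (SE 0.38, limma, adjusted p = 0.000356) and 3.20 (SE 0.38, adjusted p = 0.000249). Ir40a, the dry air receptor, had 0.993 and 0.789 FPKM in Elav-APP, against 0.0526 and 0.0687 FPKM in Elav driver and 0.259 and 0.402 FPKM in UAS-APP. Both were thus higher than in both controls. Ir62a, the most abundant member after Orco in Elav driver, had 7.49 and 7.93 FPKM in Elav-APP, against 4.33 and 4.78 FPKM in Elav driver and 4.24 and 2.68 FPKM in UAS-APP. It lies within Iml1, which had 41.3 and 40.8 FPKM in Elav-APP, against 21.8 and 21.9 FPKM in Elav driver and 38.9 and 36.6 FPKM in UAS-APP. The call of Ir62a against Elav driver (adjusted p = 0.0147) was lost without either library of either group (adjusted p = 0.0505 to 0.0958).

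Partners of the receptors differed between smell and taste. Of 14 tested support and transduction genes of the olfactory organs, 13 were higher than in Elav driver and 13 higher than in UAS-APP, with 0 lower. Of all tested genes 55% and 43.5% were higher, and 25.2% and 27.8% lower, in the same order. The odorant-binding protein gene Obp83a had 568 and 574 FPKM in Elav-APP, against 59.9 and 62.0 FPKM in Elav driver and 112 and 91.7 FPKM in UAS-APP. Of 11 tested partner genes of contact chemosensation, the taste side, 6 were higher and 2 lower than in Elav driver, and 3 higher and 3 lower than in UAS-APP. Their median relative log2 difference was 0.04 against Elav driver and -0.28 against UAS-APP. Summed FPKM of the 12 listed contact partners was 611 and 603 in Elav-APP, against 587 and 584 in Elav driver and 710 and 784 in UAS-APP. The median of the 12 was 1.32 and 1.11 FPKM in Elav-APP, so the sum rests on the more abundant of them. All 12 neuronal markers were higher in Elav-APP than in each control, and 15 of 15 gut enzyme genes were lower than in Elav driver and 14 of 15 lower than in UAS-APP, with 2 of 15 at 0 in each Elav-APP library. The part of neuronal and gut RNA in the receptor differences was not tested. Summed FPKM of the receptors came to 11.7% and 11.7% of that of the neuronal list in Elav-APP, against 29.0% and 29.5% in Elav driver and 17.0% and 18.8% in UAS-APP, the opposite order from the receptor levels themselves. Set against the olfactory partners, the receptor sum was 3.76% and 3.69% in Elav-APP, against 1.63% and 1.63% in Elav driver and 2.86% and 2.35% in UAS-APP.

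In the authors' deposited table of GO terms for APP, detection of odours held 23 genes of 72 in its background, with a fold enrichment of 2.97 and an adjusted p of 0.00619. Of those 23 genes in the authors' deposited table, 22 were members, and in the present tests all 22 were higher in Elav-APP than in Elav driver and 21 higher than in UAS-APP, beside 55% and 43.5% of all tested genes. The list comes from the same APP libraries, so these counts are not independent evidence. Of the 22, Ir64a, Or22c, Or35a, Or45a, Or67a, Or69a, Or85e, Or98a and Or98b passed the filter only through Elav-APP. These genes could only come out higher. The term for olfactory receptor activity held 25 genes in the same deposited table, all of them members, with an adjusted p of 0.487. The table names neither the comparison nor the direction of its gene list.

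The 2 control groups of the APP table differed from each other too. Elav driver had 1 member higher and 23 lower than UAS-APP of the 69 that passed the filter, where 14.7% of all tested genes were higher and 45.7% lower (60.4% called in all). The split was 4 higher and 14 lower with median centring and 6 higher and 12 lower with quantile normalization. Of the 69, 20 (11 Or, 5 Gr and 4 Ir) passed the filter only through Elav-APP, which is not in this comparison. All 20 lay under 0.3 FPKM in each library of Elav driver and UAS-APP. Of the 23, 12 were Or, 1 was Gr and 10 were Ir genes. After Or71a the largest were Ir75a, at 0.393 and 0.359 FPKM in Elav driver against 3.12 and 2.95 FPKM in UAS-APP, and Or63a, at 0.302 and 0.0888 FPKM against 1.64 and 1.32 FPKM. Or59b, a methyl acetate receptor, had 0.312 and 0.407 FPKM in Elav driver, against 2.45 and 1.63 FPKM in UAS-APP (relative log2 difference -1.88, SE 0.25, limma, adjusted p = 0.000558). Orco was lower in Elav driver as well (relative -0.70, SE 0.12, adjusted p = 0.000605). The member that was higher, the bitter receptor Gr89a, had 0.763 and 0.981 FPKM in Elav driver, against 0 and 0.313 FPKM in UAS-APP (limma, adjusted p = 0.0327). That call was lost in 5 of 6 fits with a library left out, all but the one without the second UAS-APP library. The neuronal list moved with this comparison, with all 12 markers lower in Elav driver, and its part was not tested.

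The balance between ligand-binding receptors and co-receptors was not the same in all groups. Summed FPKM of the other Or genes was 1.32 and 1.34 times that of Orco in Elav-APP, against 1.43 and 1.52 times in Elav driver and 2.22 and 2.32 times in UAS-APP. In the Shal495 table it was 1.08 and 1.03 times in Shal495, against 0.907 and 0.926 times in w1118. In the TrpA1 table it was 3.96 and 3.05 times in Elav-TrpA1, against 1.50 and 1.60 times in UAS-TrpA1. For Ir genes, the sum of all others over the 4 co-receptors was 2.46 and 2.39 in Elav-APP, against 11.8 and 10.9 in Elav driver and 5.25 and 5.35 in UAS-APP. Single genes made up much of some sums. Ir62a, within Iml1, had 4.33 and 4.78 FPKM of the other Ir sum of 10.6 and 11.1 FPKM in Elav driver. In Elav-APP it had 7.49 and 7.93 FPKM of 29.8 and 28.9 FPKM. Or71a, within Plp, made up 28.1% and 34.0% of the other Or sum in UAS-APP, against 18.4% and 19.4% in Elav-APP. The part of the surrounding genes was not tested. These ratios are descriptions of 2 libraries a group and were not tested.

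**Figure D4:**
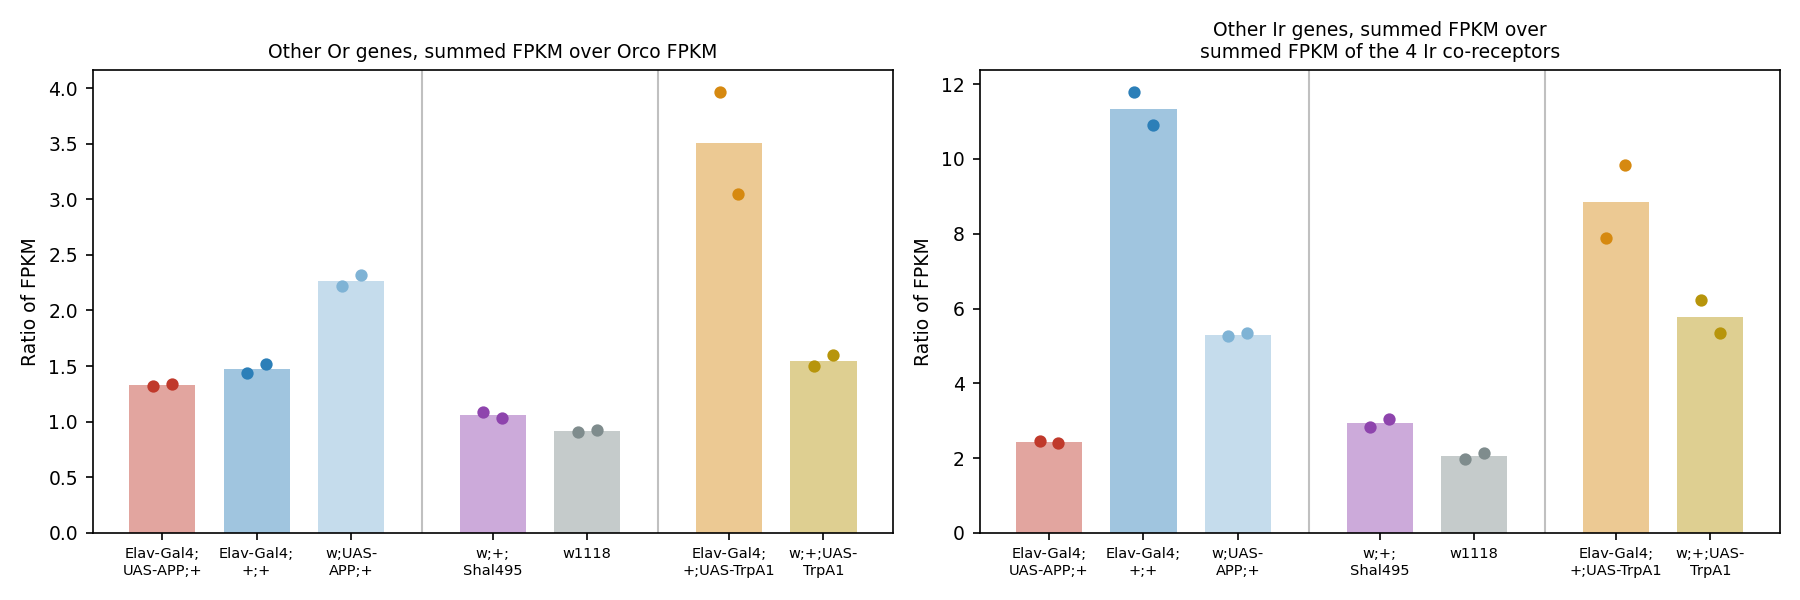
Ratio of summed FPKM of the other Or genes to Orco FPKM, left, and of the other Ir genes to the summed FPKM of the 4 Ir co-receptors, right. Points are libraries, bars are group means (n = 2), and grey lines part the tables. The Or ratio is highest in Elav-TrpA1, at 3.96 and 3.05, and the Ir ratio is highest in Elav driver, at 11.8 and 10.9.

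In the Shal495 table no receptor gene passed the threshold. Of 162 listed members 76 passed the filter, 2 of them only through the group where they were high, and limma called 0 of the 76, where it called 1.29% of all tested genes (0.657% higher and 0.63% lower). At an unadjusted p under 0.05 there were 11, and voom on recovered fragments also called 0. Replicate libraries lay far apart in this table, with a chi-square per gene between replicates of 24.53 in w1118 and 28.1 in Shal495. It was 1.87 in Elav-APP, 2.31 in Elav driver, 3.58 in Elav-TrpA1 and 2.35 in UAS-TrpA1, but 23.72 in UAS-APP. The lack of calls can therefore not be compared directly with the counts of the other tables. Of the 76, 23 had a higher and 53 a lower mean log2 value in Shal495. Libraries of the groups did not overlap for 10 members that were higher and 32 that were lower, where these shares were 17.5% and 34.8% over all tested genes. The median log2 difference was -0.24 over the tested members and -0.09 over all tested genes.

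Orco had a log2 difference of -0.47 in Shal495 (SE 0.12, limma, adjusted p = 0.145), with the libraries apart. Or92a had 6.25 and 5.32 FPKM in Shal495, against 9.32 and 8.86 FPKM in w1118, and Or59b had 4.48 and 4.05 FPKM, against 6.38 and 7.29 FPKM. Neither passed (adjusted p = 0.126 and 0.138). The close relatives Or19a and Or19b took opposite signs. Or19a, which passed the filter only through the Shal495 libraries, had 1.51 and 0.892 FPKM in Shal495, against 0.148 and 0 FPKM in w1118, whereas Or19b had 0.947 and 0.470 FPKM in Shal495, against 2.95 and 1.69 FPKM in w1118. Their sum was 2.46 and 1.36 FPKM in Shal495, against 3.10 and 1.69 FPKM in w1118, so the sums of the groups overlapped. Fragments of such near copies may be assigned to either gene, and the adjusted p of the pair was 0.128 and 0.183.

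Other members with wide gaps were Or65b, Ir76a and Gr61a. Or65b, a receptor of trichoid sensilla, had 1.35 and 0.940 FPKM in Shal495, against 3.61 and 3.85 FPKM in w1118 (log2 difference -1.64, SE 0.27, limma, adjusted p = 0.0808). The split of fragments between Or65b and its neighbours Or65a and Or65c is uncertain. Their sum, which was not tested, was 2.90 and 2.43 FPKM in Shal495, against 5.81 and 5.47 FPKM in w1118. Ir76a had 12.3 and 5.99 FPKM in Shal495, against 3.99 and 3.60 FPKM in w1118, with its 2 Shal495 libraries far from each other (adjusted p = 0.201). The sugar receptor Gr61a had 2.42 and 2.31 FPKM in Shal495, against 1.16 and 0.644 FPKM in w1118 (adjusted p = 0.16). Ir25a had 5.22 and 4.76 FPKM in Shal495, against 6.70 and 5.48 FPKM in w1118, and did not pass either. The sum of the olfactory partners was 3809 and 3401 FPKM in Shal495, against 4726 and 4521 FPKM in w1118. Of 14 tested partners 1 was lower, where 0.63% of all tested genes were lower. The contact chemosensory partners summed to 938 and 857 FPKM in Shal495, against 994 and 957 FPKM in w1118, with 1 of 11 tested lower.

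In the TrpA1 table the receptor genes did not move as a block. Of 127 listed members 35 passed the filter, 3 of them only through the group where they were high, and of these 35, 7 were higher and 4 lower in Elav-TrpA1. Over all tested genes 14.9% were higher and 39% lower (54% called in all). With quantile normalization the split was 8 higher and 2 lower. Leaving out any single library lost some of the 11 calls, as given gene by gene below. Only 1 Gr gene, Gr63a, passed the filter here, and it did not pass the threshold (limma, adjusted p = 0.498), with 0.141 and 0.353 FPKM in Elav-TrpA1, against 0.277 and 0.410 FPKM in UAS-TrpA1.

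The 4 lower members were Orco, Ir68a, Or42b and Or92a. Orco was lower in Elav-TrpA1 by a relative log2 difference of -0.96 (SE 0.12, limma, adjusted p = 0.000612). Ir68a had 0.255 and 0.361 FPKM in Elav-TrpA1, against 1.48 and 1.75 FPKM in UAS-TrpA1 (relative -1.89, SE 0.25, adjusted p = 0.00126). Both calls were kept under every alternative run, with adjusted p up to 0.0447 and 0.0358. Or42b had 0.173 and 0.346 FPKM in Elav-TrpA1, against 0.728 and 0.795 FPKM in UAS-TrpA1, and Or92a had 0.800 and 0.421 FPKM, against 1.27 and 1.51 FPKM. The call of Or42b (adjusted p = 0.0247) was lost without either UAS-TrpA1 library or the first Elav-TrpA1 library, with adjusted p up to 0.127. The call of Or92a (adjusted p = 0.0264) was lost without either UAS-TrpA1 library or the second Elav-TrpA1 library, with adjusted p up to 0.19.

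The 7 higher members were Or65c, Ir75a, Ir75b, Or71a, Ir76a, Or47b and Ir62a. Ir75a had 2.07 and 1.99 FPKM in Elav-TrpA1, against 0.735 and 0.583 FPKM in UAS-TrpA1 (relative log2 difference 1.69, SE 0.19, limma, adjusted p = 0.00143). Ir75b had 1.29 and 1.48 FPKM in Elav-TrpA1, against 0.481 and 0.470 FPKM in UAS-TrpA1 (relative 1.56, SE 0.21, adjusted p = 0.00317). These 2 acid receptors kept their calls under every alternative run, with adjusted p up to 0.0259 and 0.0359. Or65c had 1.43 and 1.52 FPKM in Elav-TrpA1, against 0.189 and 0.774 FPKM in UAS-TrpA1, and Or71a had 1.23 and 1.59 FPKM, against 0.325 and 0.736 FPKM. The split of fragments between Or65c and its neighbours Or65a and Or65b is uncertain. Their sum, which was not tested, was 2.02 and 2.23 FPKM in Elav-TrpA1, against 0.945 and 1.39 FPKM in UAS-TrpA1. The calls of Or65c and Or71a (adjusted p = 0.0395 and 0.0254) were lost without either Elav-TrpA1 library or the first UAS-TrpA1 library, with adjusted p up to 0.138 and 0.123. Or47b lost its call (adjusted p = 0.0363) without any one of the 4 libraries. Ir62a (adjusted p = 0.0177) lost its call without either Elav-TrpA1 library or the first UAS-TrpA1 library. Ir76a (adjusted p = 0.0135) lost its call without either Elav-TrpA1 library or the second UAS-TrpA1 library.

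**Figure D5:**
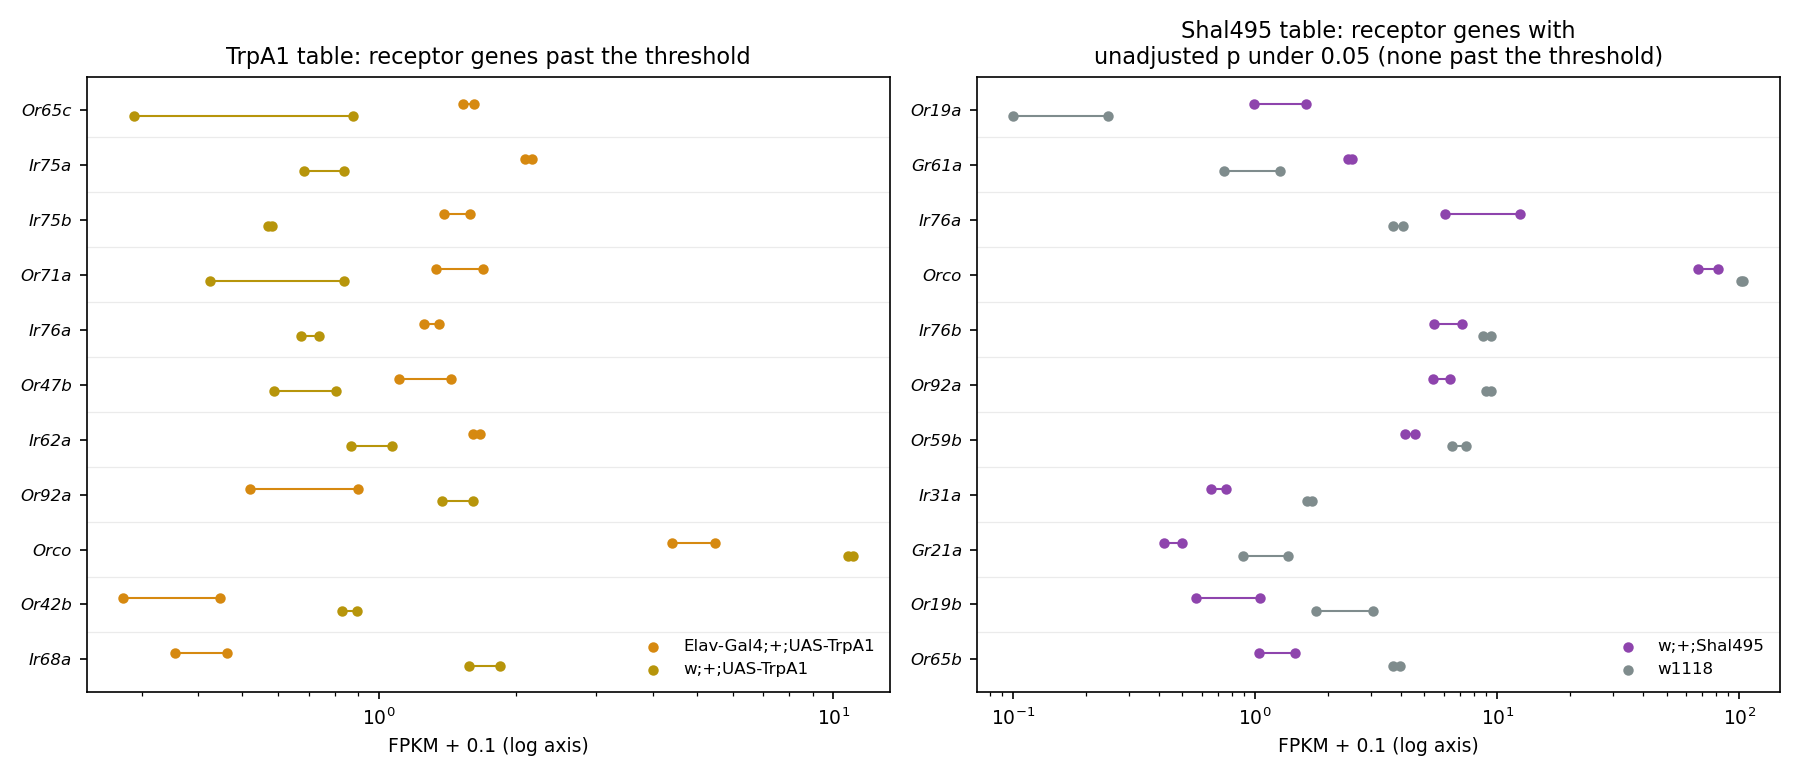
FPKM plus 0.1 (log axis) of the 11 receptor genes past the threshold in the TrpA1 table, left, and of the 11 with an unadjusted p under 0.05 in the Shal495 table, right, none of which passed the adjusted threshold. Points joined by a line are the 2 libraries of a group. Orco, Or92a, Or42b and Ir68a lie left of UAS-TrpA1 in Elav-TrpA1, and Or19a and Or19b part in opposite directions in Shal495.

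Partner and marker levels stood beside these TrpA1 differences. Of 14 tested olfactory partners 12 were lower in Elav-TrpA1 and 0 higher, where 39% of all tested genes were lower and 14.9% higher. Among the lower partners was Obp83a, at 128 and 127 FPKM in Elav-TrpA1, against 312 and 320 FPKM in UAS-TrpA1. Of 8 tested contact chemosensory partners 3 were higher and 1 lower, with sums of 975 and 975 FPKM in Elav-TrpA1, against 695 and 686 FPKM in UAS-TrpA1. Of 12 neuronal markers 9 were lower and 0 higher, with sums of 349 and 344 FPKM in Elav-TrpA1, against 466 and 459 FPKM in UAS-TrpA1 and no marker at 0. Of 12 photoreceptor genes 10 were higher and 2 lower. The part of these genes in the receptor differences was not tested.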

How the data were processed

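The authors deposited FPKM values per gene (fragments scaled by exon length and library total) in 3 tables. The submitters' processing notes name BDGP6, Bowtie2 2.2.3, HISAT2 2.1.0 and TopHat2 without roles. Adjusted p-values, fold ratios and gene counts of GO terms are copied as the authors deposited them. Per the labels' protocols, poly(A) RNA was sequenced as paired ends, and they do not state strand.

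Each table was tested separately with limma 3.58.1 (R 4.3.3, eBayes with a trend) on log2(FPKM + 0.1), for genes at 0.3 FPKM or more in at least 2 libraries, with Benjamini-Hochberg adjustment over all tested genes. The 3 APP groups shared 1 fit. Their spread between replicates was unequal, with a chi-square per gene of 23.72 in UAS-APP, 1.87 in Elav-APP and 2.31 in Elav driver. Fragments were recovered as FPKM times exon length (Ensembl BDGP6.54) and came out whole, within 0.02, for 98.6% to 98.7% of genes per library. This failed for Ir56b and Ir7g, which are left out of the counts of detected members. Same-numbered libraries did not pair (correlations of -0.014 to 0.023).

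Members and lists were chosen with earlier results of these data known. Named genes were 18 fixed ones, the 8 highest per family and up to 12 called per comparison with the largest log2 differences. Genes named outside that rule, such as Gr5a, Gr43a and Or19a, were chosen after their values were seen. Alternatives changed the pseudocount, filter, normalization, test and libraries.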

Additional observations from a re-analysis of the deposited data

How the results depend on the processing

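Of 144 calls of members, the 101 of named genes were recomputed one by one. Under 9 alternatives that kept every library they gave 875 values, of which 812 kept direction and side of the threshold, 62 fell short of it and 1 turned round: Ir75b in Elav-APP against Elav driver had a log2 difference of -0.12 with quantile normalization. Of 584 values with a library left out, 492 kept the call and 92 lost it. The named genes include the largest called differences of each comparison, so the counts of kept calls may not hold for calls of other members. A filter of 1 FPKM left fewer genes to test, and 29 members were called against Elav driver (57 without it) and 27 against UAS-APP (52 without it). With 1 library left out, called members numbered 48 to 57 in Elav-APP against Elav driver, 35 to 49 against UAS-APP, 17 to 23 in Elav driver against UAS-APP, 0 in Shal495 and 5 to 9 in Elav-TrpA1. Replicate numbers do not pair the libraries, and a fit with the replicate number as a block called 58, 49, 22, 0 and 11 in the same order.

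Counts of detected members depend on the cutoff. At 10 or more fragments, 60 members were detected in Elav-APP, 18 in Elav driver and 28 in UAS-APP, and 23 in Elav-TrpA1 against 25 in UAS-TrpA1. At 1 FPKM or more in both libraries the counts were 28, 4 and 12 in the APP table, 36 in Shal495 against 44 in w1118, and 10 in Elav-TrpA1 against 5 in UAS-TrpA1. In 1 library instead of both, 3 or more fragments gave 105 to 107 in Elav-APP, 58 to 61 in Elav driver, 69 to 74 in UAS-APP, 99 to 104 in Shal495, 101 to 108 in w1118, 64 to 66 in Elav-TrpA1 and 65 to 69 in UAS-TrpA1. Alternatives that left out members overlapping other genes, or near copies, or counted Ir7g and Ir56b by their own FPKM steps, were chosen after seeing the data.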
